A study of Mus musculus with 4 samples.

Results

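miR-21 and miR-31 are among the miRNAs most often raised in colorectal tumours, and their levels are described here in the exosomes of 2 mouse colon carcinoma lines. The members are the table entries whose IDs begin miR-21a- or miR-31-, which gave 4 of 795 mature miRNAs: mmu-miR-21a-5p, mmu-miR-21a-3p, mmu-miR-31-5p and mmu-miR-31-3p, where mmu stands for mouse. C26 and MC38 are established lines that form colon carcinomas in mice. They come from different inbred strains, and each is represented by 1 line, so line and strain cannot be told apart. Cells were grown in medium depleted of exosomes. Exosomes shed into that medium were isolated either by binding to a Wako capture ELISA kit or by precipitation with ExoQuick-TC. Each combination of line and kit gave 1 small RNA library: C26 Wako, C26 ExoQuick, MC38 Wako and MC38 ExoQuick. The labels do not say whether these libraries came from separate cultures, so differences between them may be technical. With 1 library per combination, the p-values measure no spread between replicates. Those of limma rest on a trend over all miRNAs.

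A miRNA is cut from a hairpin precursor, one arm of which (5p or 3p) is mostly kept as the guide strand of the silencing complex while the other is mostly lost. The guide finds target mRNAs chiefly through its seed, bases 2 to 8 from the 5′ end. miR-21 is known to repress the tumour suppressor Pdcd4. In human colorectal cancer, miR-31 is linked to loss of the Ras inhibitor RASA1. Both miRNAs are also released from tumour cells in vesicles.

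The mature sequences are printed, 5′ to 3′ with the seed in capitals, because the seed and the shared bases decide which entries can be confused with each other. They are from RefSeq on GRCm38.p6, where all 4 members had an entry.
miR-21a-5p: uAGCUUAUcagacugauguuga
miR-21a-3p: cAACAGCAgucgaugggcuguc
miR-31-5p: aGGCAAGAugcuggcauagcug
miR-31-3p: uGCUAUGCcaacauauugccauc
miR-21b: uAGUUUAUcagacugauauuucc
miR-21c: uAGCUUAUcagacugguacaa

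Each of the 4 members has its own seed. Among 1679 mature names of that table, miR-21c alone shares the seed of miR-21a-5p, and no other name has the seed of miR-21a-3p, miR-31-5p or miR-31-3p. Counting positions from 1 at the 5′ end of miR-21a-5p, miR-21b carries the changes C4U, G18A, G21U and A22C, of which C4U lies in the seed. miR-21c carries A16G, G18A, U19C, U20A and G21A. Of these relatives, miR-21b was listed with 15 reads in C26 ExoQuick and 1 in MC38 ExoQuick, and miR-21c with 1 read in C26 ExoQuick. Neither had a read in the Wako libraries. Reads assigned to miR-21a-5p numbered 43755 in C26 ExoQuick, so relatives with near-identical sequence took a small part of the miR-21 signal. The Mir21a hairpin (GRCm38.p6, chr11:86584067-86584158, minus strand) lies in exon 12 of Vmp1, in its 3′ UTR and on the same strand. The Mir31 hairpin (chr4:88910557-88910662, minus strand) lies in exon 3 of the long noncoding RNA gene AL805899.1, on the same strand. Gene positions are from GENCODE M21.

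The deposited values could be taken as RPM, the usual scaling of reads to a common library size, and whole reads were recovered from them. Totals were 33692 reads in C26 Wako, 1356801 in C26 ExoQuick, 3867 in MC38 Wako and 340643 in MC38 ExoQuick, a span of 351-fold. A single read was worth 29.7, 0.737, 259 and 2.94 RPM in that order. A count of 0 was set against 3 reads, which are worth 776 RPM in MC38 Wako. The exact 95% interval of 0 reads there reaches 953 RPM. Exact 95% intervals are Clopper-Pearson for levels and shares and conditional exact intervals for ratios. They cover counting error alone: the reads carried no molecular identifiers and cannot be counted as independent molecules. The gut epithelial miRNAs with an entry were scarce: of 10 named, 3 had one (miR-194-5p, miR-192-5p and miR-203-3p), and their sum lay between 70.5 and 1034 RPM. The highest value, of miR-194-5p in MC38 Wako, was worth 4 reads. miR-203-3p was at 0 in both Wako libraries and miR-192-5p in MC38 Wako. The other 7, the miR-200 family among them, had no entry under these names. All 795 entries had at least 1 read in some library, so a missing entry may stand for 0 reads in every library. Whether these names were searched for is not given, so no level is stated for them.

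Both guide strands were abundant, and both were higher in C26 than in MC38 exosomes under each kit, but the order of the kits differed. With library totals as the scale, miR-31-5p stood over 8-fold higher in the Wako than in the ExoQuick library of both lines. miR-21a-5p was lower with Wako in C26 and higher with Wako in MC38. The plot of levels by library shows these orders.

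miR-21a-5p, the guide strand of miR-21, was measured at 21756 RPM in C26 Wako (95% interval 20225 to 23370), 32249 RPM in C26 ExoQuick (31952 to 32547), 10344 RPM in MC38 Wako (7400 to 14059) and 2601 RPM in MC38 ExoQuick (2433 to 2778). These levels rested on 733, 43755, 40 and 886 reads. Both C26 libraries lay above both MC38 libraries, and no interval overlapped its neighbour. Among the miRNAs with reads in each library, miR-21a-5p ranked 15th of 407, 9th of 687, 20th of 188 and 29th of 475 in the same order.

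miR-31-5p, the guide strand of miR-31, was measured at 37338 RPM in C26 Wako (35339 to 39418), 4475 RPM in C26 ExoQuick (4364 to 4589), 6206 RPM in MC38 Wako (3980 to 9221) and 740 RPM in MC38 ExoQuick (651 to 837). These levels rested on 1258, 6072, 24 and 252 reads. C26 Wako was highest and MC38 ExoQuick lowest, while the intervals of MC38 Wako and C26 ExoQuick overlapped. It ranked 7th, 31st, 29th and 54th in the same order.

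**Figure D1:**
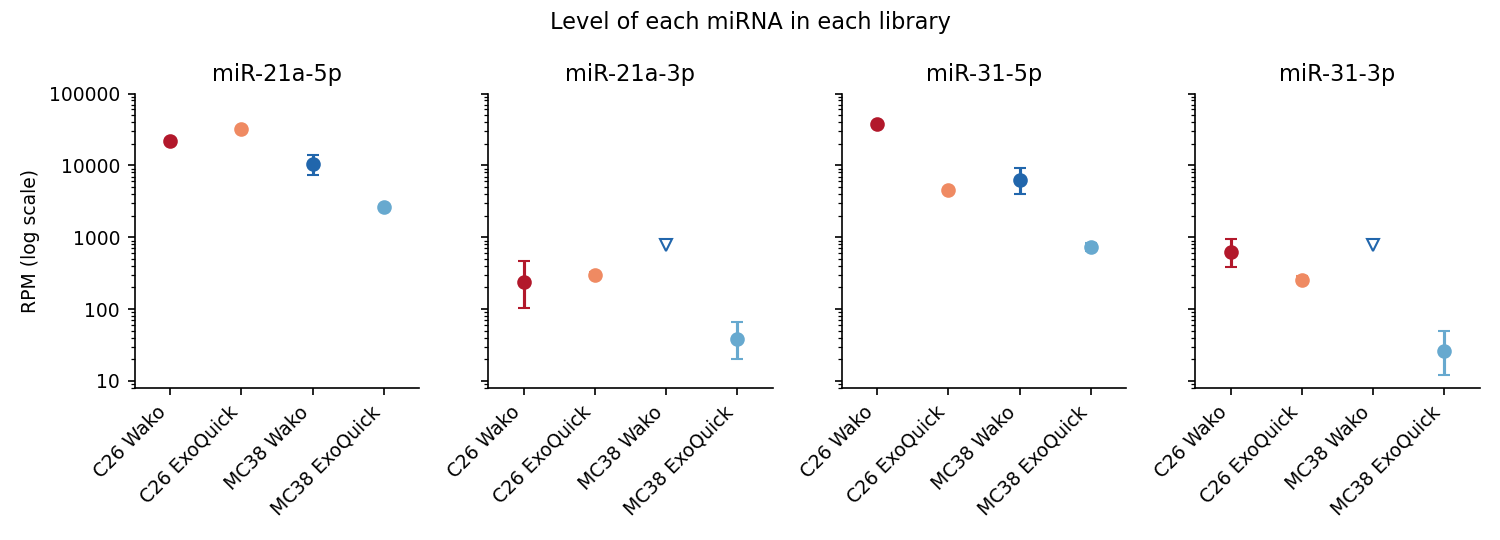
Level of each member (RPM, log scale) in each library; bars are exact 95% Clopper-Pearson intervals, covering counting error only, and open triangles mark the 776 RPM that a count of 0 allows in MC38 Wako. Both C26 libraries lie above both MC38 libraries for miR-21a-5p, whereas for miR-31-5p C26 ExoQuick (4475 RPM) lies near MC38 Wako (6206 RPM).

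The title of the series names the comparison of C26 with MC38. For miR-31-5p, C26 exceeded MC38 by a ratio of 6.02 under Wako (4.02 to 9.43) and 6.05 under ExoQuick (5.33 to 6.89). For miR-21a-5p, the ratio of C26 to MC38 was 2.10 under Wako (1.53 to 2.97) and 12.4 under ExoQuick (11.6 to 13.3). All 4 intervals lay above 1. With median-ratio scaling the ExoQuick ratios were smaller, 3.27 for miR-31-5p and 6.70 for miR-21a-5p. Of 76 miRNAs averaging 1000 RPM or more in the 4 libraries, 20 (26.3%) likewise had intervals above 1 under both kits. Under Wako, the ratio of miR-31-5p was the 2nd highest of the 76, whose median was 1.21, and that of miR-21a-5p was the 15th. Under ExoQuick, miR-21a-5p was 13th and miR-31-5p 19th, against a median ratio of 1.90.

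The line difference was tested with limma on log2(RPM + 1), with kit as a second term, over the 390 miRNAs that averaged 10 RPM or more. All 4 members met that limit, the 3p arms mainly through their C26 levels. For miR-31-5p, the log2 difference of C26 against MC38 was 2.59 (SE 0.83, adjusted p = 0.0519), and for miR-21a-5p it was 2.35 (SE 0.83, adjusted p = 0.115). Neither passed the threshold of 0.05. Of the 4 members, 0 were called in limma, with 3 at unadjusted p under 0.05. For all tested miRNAs, the share called was 3.33%, and 46 of 390 were at unadjusted p under 0.05. edgeR on the recovered reads also called 0 of the 4 members, against 4.87% of all, with 4 at unadjusted p under 0.05, as were 63 of 390. DESeq2 called 1, miR-31-5p (log2 2.59, adjusted p = 0.0265), against 6.15% of all, with 2 at unadjusted p under 0.05, as were 43 of 390. The limma and edgeR counts at unadjusted p include 3p arm entries, which met the limit mainly through C26. Those counts therefore lend no support to a line difference. The median log2 difference over all 390 miRNAs was 1.85. That median was 1.08 with a pseudocount of 10, 0.37 for miRNAs averaging 100 RPM or more, 0.32 in edgeR and 0.19 in DESeq2. Of the 13 miRNAs called in limma, 11 were higher in C26 and 2 in MC38, and the split was 10 to 6 with quantile normalization and 12 to 6 with miR-130a-3p left out of the totals.

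The second comparison sets Wako against ExoQuick. In C26, miR-31-5p was 8.34-fold higher with Wako than with ExoQuick (7.85 to 8.87), and in MC38 it was 8.39-fold higher (5.28 to 12.8). For miR-21a-5p, the ratio of Wako to ExoQuick was 0.675 in C26 (0.626 to 0.726) and 3.98 in MC38 (2.82 to 5.46). The direction thus differed between the lines for miR-21a-5p and not for miR-31-5p. With median-ratio scaling, however, the ratio in MC38 was 2.16 for miR-31-5p and 1.02 for miR-21a-5p, and that in C26 was 4.45 for miR-31-5p and 0.360 for miR-21a-5p. The median ratio over the 76 abundant miRNAs was 1.06 in C26 and 2.81 in MC38. From the highest, miR-31-5p ranked 12th in C26 and 23rd in MC38, and miR-21a-5p 48th and 33rd. Of these 76, 26 (34.2%) had intervals above 1 in both lines. miR-31-5p was also 1 of 9 (11.8%) with intervals above 1 in all 4 ratios, those of line and those of kit.

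With line as a second term, miR-31-5p was called higher with Wako in limma (log2 3.06, SE 0.83, adjusted p = 0.00731). It was higher with Wako in 2 of 2 lines. Over all tested miRNAs, 5.38% were called, 21 of 390, all of them higher with Wako. edgeR (adjusted p = 0.0291) and DESeq2 (adjusted p = 0.00224) also called miR-31-5p, where each called 12.1% of all. miR-21a-5p was not called (log2 0.71, SE 0.83, adjusted p = 0.789), nor was either 3p arm, so that 1 of 4 members passed. The miR-31-5p call ended under other scalings (adjusted p = 0.429 with TMM, 0.409 with median-ratio scaling and 0.0586 with quantile normalization) and in every fit that left out 1 library, where the line term had to be dropped (adjusted p from 0.358 to 0.603). The split of kit calls was 1 higher with Wako to 3 higher with ExoQuick under TMM, and 7 to 3 under quantile normalization. Set against the median of all 390 miRNAs, miR-31-5p stood 2.62 higher on the log2 scale as deposited and between 2.24 and 2.70 higher under the 4 other scalings, but 1.60 higher in edgeR and 1.21 in DESeq2. Wako libraries were shallower than ExoQuick libraries of the same line, and depth and kit cannot be told apart.

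Whether the line ratio was alike under both kits was measured by the ratio under Wako divided by that under ExoQuick. For miR-31-5p this was 0.994 (0.650 to 1.59), the 2nd closest to 1 of the 76 abundant miRNAs. For miR-21a-5p it was 0.170 (0.122 to 0.241), the 62nd closest. The interval held 1 for 29 of the 76, lay below 1 for 32 and lay above 1 for 15. Those counts were 34, 23 and 19 with miR-130a-3p left out of the totals, and 32, 17 and 27 with median-ratio scaling. The agreement of miR-31-5p depended on the scaling. miR-130a-3p made up 6.03%, 16.9%, 14.5% and 47.99% of the listed reads in C26 Wako, C26 ExoQuick, MC38 Wako and MC38 ExoQuick, and leaving it out of the totals moved the value of miR-31-5p to 1.48 (0.968 to 2.37), the 26th closest. With median-ratio scaling it was 2.06 (1.35 to 3.29), the 36th closest. For miR-21a-5p the value stayed below 1, at 0.253 (0.182 to 0.359) and 0.351 (0.253 to 0.499), the 57th and 45th closest.

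**Figure D2:**
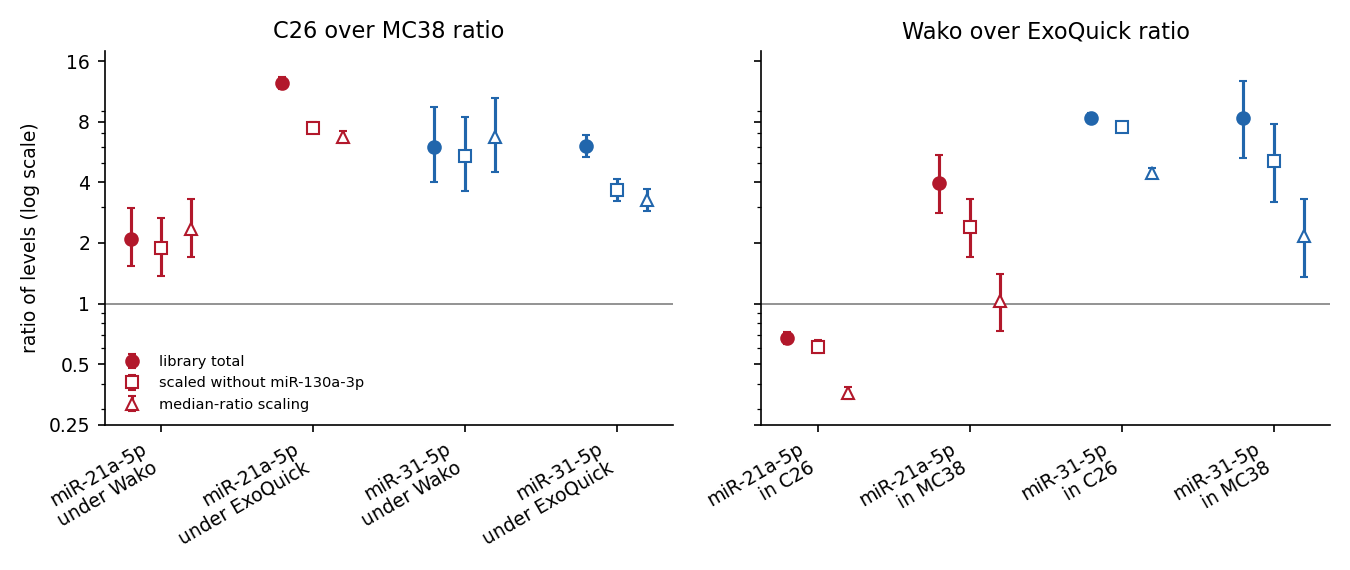
Ratios of C26 to MC38 under each kit (left) and of Wako to ExoQuick in each line (right), on a log scale, for miR-21a-5p (red) and miR-31-5p (blue); markers give the scaling and bars exact 95% intervals. With library totals the miR-31-5p ratios pair closely (6.02 and 6.05 left, 8.34 and 8.39 right), and the other scalings separate them.

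**Figure D3:**
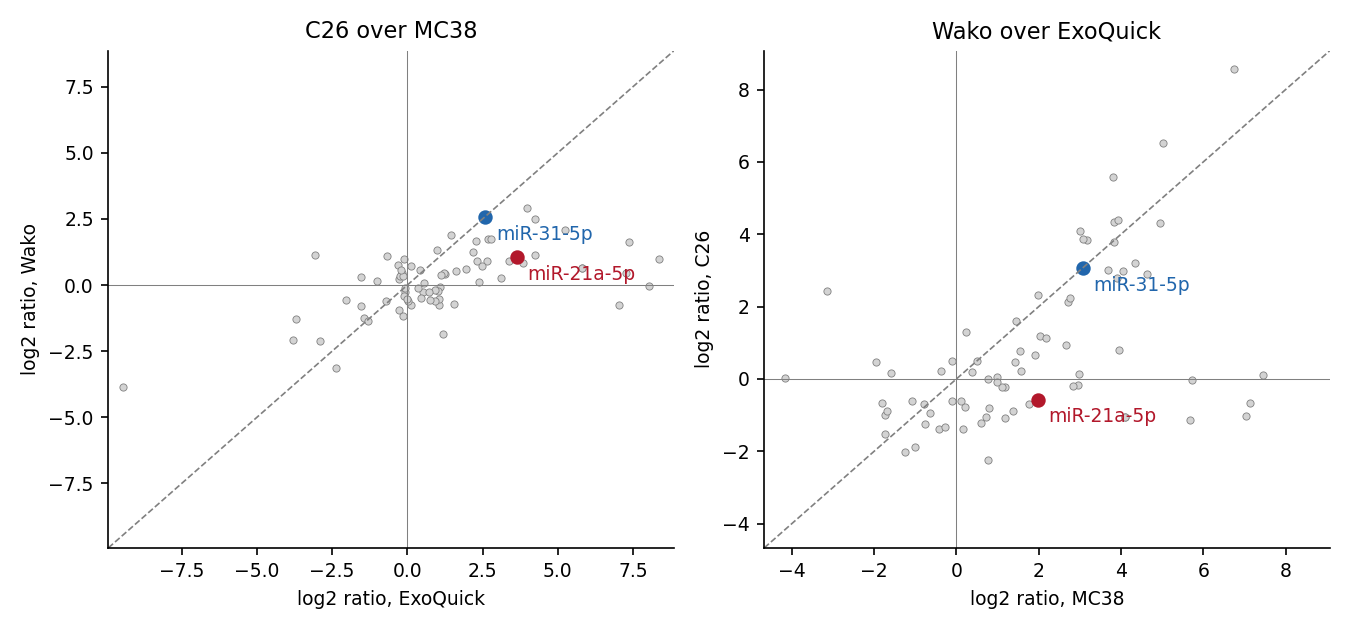
Log2 ratios of the 76 miRNAs that averaged 1000 RPM or more: C26 over MC38 under ExoQuick and Wako (left), and Wako over ExoQuick in MC38 and C26 (right), with the diagonal dashed. miR-31-5p lies on the diagonal in both panels, and miR-21a-5p lies below it.

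In MC38 Wako, miR-21a-5p stood at 0.321 of its level in C26 ExoQuick. miR-214-3p stood at 0.329 of its level there (22498 RPM in MC38 Wako and 68331 RPM in C26 ExoQuick), while MC38 ExoQuick held only 443 RPM of it. For miR-21a-5p, carry-over of C26 ExoQuick reads into MC38 Wako therefore cannot be told apart from what MC38 exosomes held. The line ratio of miR-21a-5p under Wako, its kit ratio in MC38 and the ratios to miR-31-5p that use MC38 Wako share this limit. miR-31-5p in MC38 Wako was 1.39 times its level in C26 ExoQuick. Whether a part of it was carried over, from C26 ExoQuick or from C26 Wako with 37338 RPM, was not tested. In MC38 Wako, miR-31-5p rested on 24 reads and miR-21a-5p on 40.

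The ratio of one miRNA to the other within a library does not depend on how the library is scaled. miR-31-5p over miR-21a-5p was 1.72 in C26 Wako (1.57 to 1.88), 0.139 in C26 ExoQuick (0.135 to 0.143), 0.600 in MC38 Wako (0.346 to 1.02) and 0.284 in MC38 ExoQuick (0.246 to 0.328). miR-31-5p thus outnumbered miR-21a-5p in C26 Wako alone of the 4 libraries. Between kits, this ratio was higher with Wako by 12.4-fold in C26 (11.2 to 13.6) and by 2.11-fold in MC38 (1.19 to 3.66). Between lines, it went opposite ways: C26 over MC38 was 2.86 under Wako (1.67 to 5.001) and 0.488 under ExoQuick (0.423 to 0.565). Which line carried relatively more miR-31-5p therefore differed with the kit, in 1 library each. Ligation and amplification favour some small RNAs over others, so the ratio within 1 library is not a ratio of molecules.

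**Figure D4:**
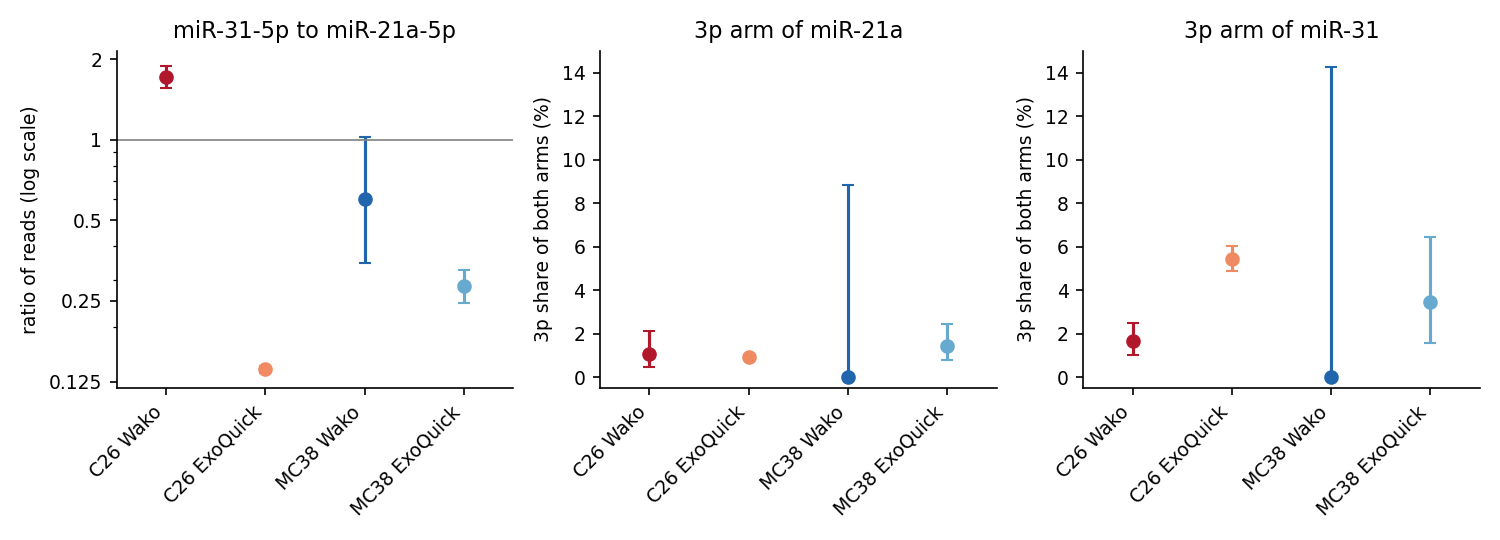
Quantities that do not depend on library scaling: the ratio of miR-31-5p to miR-21a-5p reads (left, log scale) and the 3p share of the reads of both arms of miR-21a (centre) and miR-31 (right), in percent, with exact 95% intervals. C26 Wako alone lies above a ratio of 1 (1.72), and the miR-31 3p share is 1.64% in C26 Wako against 5.42% in C26 ExoQuick.

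The 3p arms, the strands mostly lost during maturation, were far scarcer than the guides. miR-21a-3p had 237 RPM in C26 Wako, 302 RPM in C26 ExoQuick, 0 reads in MC38 Wako and 38.2 RPM in MC38 ExoQuick. miR-31-3p had 623 RPM in C26 Wako, 256 RPM in C26 ExoQuick, 0 reads in MC38 Wako and 26.4 RPM in MC38 ExoQuick. Both were higher in C26 under ExoQuick, miR-21a-3p by 7.92-fold (4.58 to 14.999) and miR-31-3p by 9.71-fold (5.06 to 21.4). With median-ratio scaling these were 4.28-fold (2.47 to 8.10) and 5.24-fold (2.73 to 11.6). Under Wako, the C26 values lay below 776 RPM, the worth of 3 reads in MC38 Wako, so no difference was detectable at that depth. In limma, the 3p arms passed neither for line (adjusted p = 0.605 for miR-21a-3p and 0.389 for miR-31-3p) nor for kit (adjusted p = 0.789 and 0.886), and their fitted differences depend on the pseudocount.

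Both arms come from one hairpin, so their ratio compares strands made in equal number. For miR-21, the 3p share of both arms was 1.08% in C26 Wako (0.467 to 2.12), 0.928% in C26 ExoQuick (0.841 to 1.02) and 1.45% in MC38 ExoQuick (0.772 to 2.46). These shares did not separate beyond counting error. In MC38 Wako it was 0 of 40 reads, with an exact interval that reached 8.81%. For miR-31, the 3p share was 1.64% in C26 Wako (1.02 to 2.50), 5.42% in C26 ExoQuick (4.88 to 6.003) and 3.45% in MC38 ExoQuick (1.59 to 6.44). In MC38 Wako it was 0 of 24 reads, with an exact interval that reached 14.2%. In C26, the ratio of the 5p to the 3p arm was 3.43-fold higher with Wako than with ExoQuick for miR-31 (2.20 to 5.64) and 0.859-fold for miR-21 (0.429 to 2.01). The 5p arm of miR-31 was thus 8.34-fold higher with Wako in C26, and the 3p arm 2.43-fold (1.49 to 3.77), or 4.45-fold and 1.30-fold (0.792 to 2.01) with median-ratio scaling. Unequal arms between kits were common. Of 17 hairpins with at least 20 reads of each arm in both C26 libraries, a limit set after the data were seen, the log2 of this quantity was above 0 for 11, had a median of 1.19, and was 1.78 for miR-31, the 9th largest in size.

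The profiles of miR-21a-5p and miR-31-5p over the 4 libraries differed from each other. The distance between their log2 profiles, each centred on its own mean, was 2.69, and miR-31-5p was 34th of 75 abundant miRNAs in likeness to miR-21a-5p. Nearest to miR-21a-5p were miR-143-3p (distance 0.28), miR-99b-5p (0.64) and miR-221-3p (0.81), against a median distance of 2.97. miR-143-3p, known for its abundance in smooth muscle, had 5877 RPM in C26 Wako, 9542 RPM in C26 ExoQuick, 3103 RPM in MC38 Wako and 919 RPM in MC38 ExoQuick, the same order as miR-21a-5p. miR-221-3p, which is often raised in carcinomas, had 12407 RPM in C26 Wako, 13925 RPM in C26 ExoQuick, 5689 RPM in MC38 Wako and 734 RPM in MC38 ExoQuick, again in that order. Nearest to miR-31-5p were miR-1983 (0.94), miR-125b-5p (1.09) and miR-125a-5p (1.35), against a median of 3.48. miR-125b-5p, a mammalian relative of lin-4, had 21429 RPM in C26 Wako, 2717 RPM in C26 ExoQuick, 2845 RPM in MC38 Wako and 173 RPM in MC38 ExoQuick. These distances describe 4 libraries of unequal depth.

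Other miRNAs known to be raised in colorectal tumours had line differences of either sign. Of 17 in that list, miR-21a-5p and miR-31-5p included, 16 had an entry and 13 were tested. None was called between the lines in limma, and miR-31-5p alone was called between the kits. The list median of the log2 line difference was 0.08, and 7 of the 13 were above 0. Over all 390 miRNAs it was 1.85, but 0.37 over the miRNAs averaging 100 RPM or more, so the distance of the list from all miRNAs depends on the low ones. The list median of the log2 kit difference was 0.45, against 0.44 over all. miR-19b-3p, an oncogenic member of the miR-17-92 cluster, had a log2 line difference of -0.01 (adjusted p = 0.994). miR-92a-3p, of the same cluster, had a log2 line difference of 1.08 (adjusted p = 0.711). miR-19b-3p stood at 10507 RPM in C26 Wako, 27215 RPM in C26 ExoQuick, 14740 RPM in MC38 Wako and 19701 RPM in MC38 ExoQuick, so neither line was higher under both kits.

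Of 13 miRNAs listed as lowered in colorectal tumours, 7 had an entry and 6 were tested. miR-378a-3p, whose hairpin sits inside Ppargc1b, the gene of a metabolic coactivator, was called lower in C26 (log2 -2.94, adjusted p = 0.0159), and was lower there under 2 of 2 kits, while 0 were called higher. The list median of the log2 line difference was 1.96, and 5 of the 6 were above 0. Over all 390 miRNAs, 3.33% were called and the median was 1.85, or 0.37 over those averaging 100 RPM or more. miR-195a-5p and miR-30a-5p were at 0 in MC38 Wako, so their fitted differences depend on the pseudocount. miR-143-3p (log2 2.15, adjusted p = 0.180) and miR-497a-5p (log2 1.25, adjusted p = 0.711), both linked to restraint of cell growth, were not called. None of the 6 was called between the kits.

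Markers of other cells were present too. The 4 miRNAs of white blood cells summed to 6114 RPM in C26 Wako, 4656 RPM in C26 ExoQuick, 6465 RPM in MC38 Wako and 79.3 RPM in MC38 ExoQuick. Of these, limma called miR-142a-5p both between the lines (log2 3.11, adjusted p = 0.0338) and between the kits (log2 3.21, adjusted p = 0.0155), but both calls rest on MC38 ExoQuick, which held 12 reads of it. C26 over MC38 was 0.592 under Wako (0.360 to 1.03) and 130.1 under ExoQuick (74.4 to 252), and Wako over ExoQuick was 0.635 in C26 (0.514 to 0.775) and 139 in MC38 (64.3 to 315). miR-150-5p was called higher with Wako (log2 8.30, adjusted p = 0.0336). miR-150-5p was at 0 in MC38 ExoQuick and miR-223-3p in MC38 Wako, so the fitted values of both depend on the pseudocount. miR-142a-3p was not called (adjusted p = 0.148 for kit). Of the 4, 1 was called for line and 2 for kit, against 3.33% and 5.38% of all tested miRNAs. Every kit call among all miRNAs was higher with Wako. The 5 miRNAs of red cells and liver summed to 1840 RPM in C26 Wako, 848 RPM in C26 ExoQuick, 1552 RPM in MC38 Wako and 825 RPM in MC38 ExoQuick. Of these, miR-486a-5p and miR-486b-5p share all their reads, and the sums count those reads under both names (742 RPM each in C26 Wako). In either comparison, 0 of 5 were called. miR-486a-5p (adjusted p = 0.395 for kit) and miR-122-5p (adjusted p = 0.564) were the most abundant distinct ones. The part of such RNA in the kit difference of miR-31-5p was not tested.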

How the data were processed

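Small RNA libraries of exosomes from C26 and MC38 cells, 1 for each combination of line and isolation kit, were analysed from 1 deposited table of known miRNAs. It holds normalized signal values made by the authors, and DESeq2 is named, with no version or role, per the submitters' processing notes. Which aligner, counter, genome build or miRBase release was used is not given in the sources used here. Of nonzero values, 100.0% in every column were whole multiples of 1 read's worth for exactly 1 library total, within 0.006, so whole reads were recovered. Reads that match several miRNAs are listed under each, and columns sum to between 1020209 and 1057545.

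The limma fit (version 3.58.1, R 4.3.3) used the mean-variance trend, log2(value + 1), miRNAs averaging 10 or more, additive terms for line and kit, two-sided tests, and Benjamini-Hochberg adjustment over all 390. It leaves 1 residual degree of freedom, and the prior degrees of freedom were infinite, so the spread came from the trend over all miRNAs. Fold changes on this scale depend on the pseudocount for low miRNAs. Alternatives used the quasi-likelihood test of edgeR 4.0.16 and, for the same recovered reads, DESeq2 1.42.0. The line term of the limma and edgeR fits was tested on simulated data with no kit effect. The kit term and DESeq2 were not tested in this way. Differences within 1 kit or 1 line have no replicate check.

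Named were the members, entries sharing their seed or number, the 3 most abundant and any called miRNAs of each list, and the 3 nearest profiles (Euclidean distance) among miRNAs averaging 1000 or more. miR-214-3p was added after its values were seen. Members and lists were chosen with earlier results of these data known. The rescaled within-kit and within-line ratios were added after seeing the data.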

Additional observations from a re-analysis of the deposited data

Results flagged for a closer look

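The difference of the kits went opposite ways in the 2 lines for miR-21a-5p. Its ratio of Wako to ExoQuick was 0.675 in C26 and 3.98 in MC38, so that the C26 ratio divided by the MC38 ratio was 0.170 (exact 95% interval 0.122 to 0.241, counting error only). With 1 library per combination, this difference was not tested against a spread between replicates. The MC38 ratio uses the 40 miR-21a-5p reads of MC38 Wako, where carry-over of C26 ExoQuick reads cannot be told apart from exosome content. With median-ratio scaling the MC38 ratio was 1.02 (0.727 to 1.41), and the C26 ratio divided by the MC38 ratio was 0.351.

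The ratio of miR-31-5p to miR-21a-5p, which no scaling changes, also went opposite ways. C26 over MC38 was 2.86 under Wako and 0.488 under ExoQuick, and this difference between kits was not tested. The Wako value rests on 24 and 40 reads in MC38 Wako, and the same carry-over limit holds for those of miR-21a-5p.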

How the results depend on the processing

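With 1 library per combination of line and kit, there were no replicates to pair. The second term of the fit (kit for the line difference, line for the kit difference) already sets libraries that share it side by side. The fits with no second factor lack it. Against 13 line calls, there were 8 with no filter, 6 with TMM, 24 with DESeq2, and 0 each with median-ratio scaling, no second factor and no trend (25, 25 and 46 at unadjusted p under 0.05). Against 21 kit calls, there were 4 with TMM, 10 with quantile normalization, 9 with no second factor, 47 each with edgeR and DESeq2, and 0 each with median-ratio scaling and no trend (45 and 31 unadjusted). Leaving out 1 library, which drops the second term, gave 0 to 58 line calls (58 without C26 ExoQuick, 43 without C26 Wako, 0 without MC38 Wako or MC38 ExoQuick) and 0 to 41 kit calls (0 without C26 Wako or C26 ExoQuick, 11 without MC38 Wako, 41 without MC38 ExoQuick). The cause of these shifts was not tested.

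The line difference of both guide strands was positive under every alternative run. For miR-21a-5p it passed with no filter (log2 2.35, adjusted p = 0.0475) and ran from 1.36 to 3.35 without 1 library. For miR-31-5p it passed with a mean of at least 100 RPM (2.59, adjusted p = 0.0479), with miR-130a-3p left out of the totals (2.15, adjusted p = 0.0498) and in DESeq2 (2.59), and ran from 1.06 to 4.13 without 1 library. Over all alternatives, its adjusted p ran from 0.0265 to 0.980. The kit difference of miR-31-5p was positive throughout but did not pass with TMM (1.43), median-ratio scaling (1.63), quantile normalization (2.33), no second factor or no trend (3.06 each, adjusted p = 0.217 and 0.657), or without 1 library (1.77 to 4.36). That of miR-21a-5p changed sign with TMM (-0.92), median-ratio scaling (-0.72) and quantile normalization (-0.060), and ran from -1.10 (without MC38 ExoQuick) to 2.53. These scalings moved the median of all 390 miRNAs too, for the kits to -0.82, -0.61 and -0.37 against 0.44 as deposited, and to 0.10 without miR-130a-3p. For the lines the median was 1.64, 1.31, 0.76 and 1.504 in the same order, against 1.85.

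With miR-130a-3p left out, and with median-ratio scaling, the ExoQuick line ratio was 7.48 and 6.70 for miR-21a-5p and 3.65 and 3.27 for miR-31-5p. The kit ratio of miR-21a-5p was 0.610 and 0.360 in C26 and 2.41 and 1.02 in MC38, and that of miR-31-5p 7.54 and 4.45 in C26 and 5.09 and 2.16 in MC38. The Wako line ratios stayed within their counting intervals. In MC38 Wako, 24 and 40 reads limit every ratio that uses it.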

Other observations

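Among the miRNAs raised in colorectal tumours, miR-183-5p, named here after its values were seen, had 920 RPM in C26 Wako, 134 RPM in C26 ExoQuick and 0 reads in both MC38 libraries. Against 3 reads per library for a count of 0, its C26 level was 1.19-fold higher under Wako and 15.2-fold higher under ExoQuick. The exact interval of 0 reads in MC38 Wako, however, reaches 953 RPM, above 920 RPM, so no difference was established under Wako. In MC38 ExoQuick that interval reaches 10.8 RPM, below the 134 RPM of C26 ExoQuick. miR-183-5p was not called in limma (adjusted p = 0.389). miR-155-5p, an inflammation-linked miRNA of the same list, had 119 and 16.2 RPM in C26 Wako and C26 ExoQuick and 0 reads in MC38. Set against 3 reads, its C26 level was 1.84-fold higher under ExoQuick, where the exact interval of 0 reads in MC38 reaches 10.8 RPM. Under Wako no difference was detectable.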
